A study of Rattus norvegicus with 10 samples.

Results

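The 7 genes Ptgs1, Ptgs2, Tbxas1, Hpgds, Ptgds, Alox5 and Alox5ap encode enzymes and an accessory protein that turn arachidonic acid into prostaglandins, thromboxane and leukotrienes. They were measured in microglia, the resident macrophages of the brain, with and without interferon gamma (IFN-gamma), a cytokine of T cells and natural killer cells. Every probe set whose single gene symbol in the platform annotation was one of these names was taken, which gave 10 of 8740 probe sets for 7 of 4736 singly named genes. Ptgs2, Hpgds and Alox5ap each had a pair of probe sets and the other genes had a single one. In the first group, 3 cultures of neonatal rat brain microglia received medium with 100 U/ml IFN-gamma for 16 hours, and culture 1 of this group was run as the technical arrays 1a, 1b and 1c, which were averaged. In the second group, 5 independent control cultures (numbered 1, 2, 3, 5 and 6) received only fresh medium. All cells came from flasks that were each seeded with the tissue of a single brain, in medium with 15% fetal calf serum. They were plated at day 15 at 100000 cells per dish. Which brain gave which culture is not in the sample labels, so brains shared between cultures cannot be told. Strain and sex are not given in the sources used here.

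Prostaglandin synthesis starts with the cyclooxygenases, which make the unstable endoperoxide that terminal synthases convert to a specific product. Ptgs1 is the cyclooxygenase that many cells carry constitutively, and Ptgs2 is the one that inflammatory stimuli induce. Leukotriene synthesis starts with 5-lipoxygenase (Alox5), which needs the membrane protein FLAP (Alox5ap) to receive its substrate. Macrophages, microglia among them, are known sources of prostaglandins and thromboxane in the inflamed brain.

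Levels are quantile-normalised log2(signal + 16) values, on which a signal of 0 is 4, a scale that understates the fold change of dim genes. Probe sets with a mean level under 6 over the 8 cultures are called dim. Differences are IFN-gamma minus control, tested with limma over all 8740 probe sets with Benjamini-Hochberg adjustment and a threshold of 0.05. Median deposited signals ran from 11.1 to 23.7 over the 5 IFN-gamma arrays, and from 7.4 to 20.2 over the 5 control arrays. Control culture 3 had the lowest median, and 29.1% of its probe sets exceeded a signal of 16. On the other 9 arrays this share was 41.0% to 58.3%.

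None of the 10 probe sets passed, at a smallest adjusted p of 0.208 by limma, whereas 0.927% of all probe sets passed as higher and 0.606% as lower. At an unadjusted p under 0.05 there were 2 of the 10 (Ptgs1 and a Hpgds probe set) and 918 of all 8740. The 3 IFN-gamma cultures lay entirely above the 5 controls for 1 of the 10 (Ptgs1) and entirely below them for 1 (Hpgds), against 4.28% and 3.40% of all probe sets. The differences of the 10 split evenly in sign, 5 positive and 5 negative, with a median of -0.017 on the log2 scale, which is also the median over all probe sets. Of the 10, 4 had a mean level of at least 6: those of Ptgs1 and Hpgds and the brighter of Alox5ap.

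**Figure D1:**
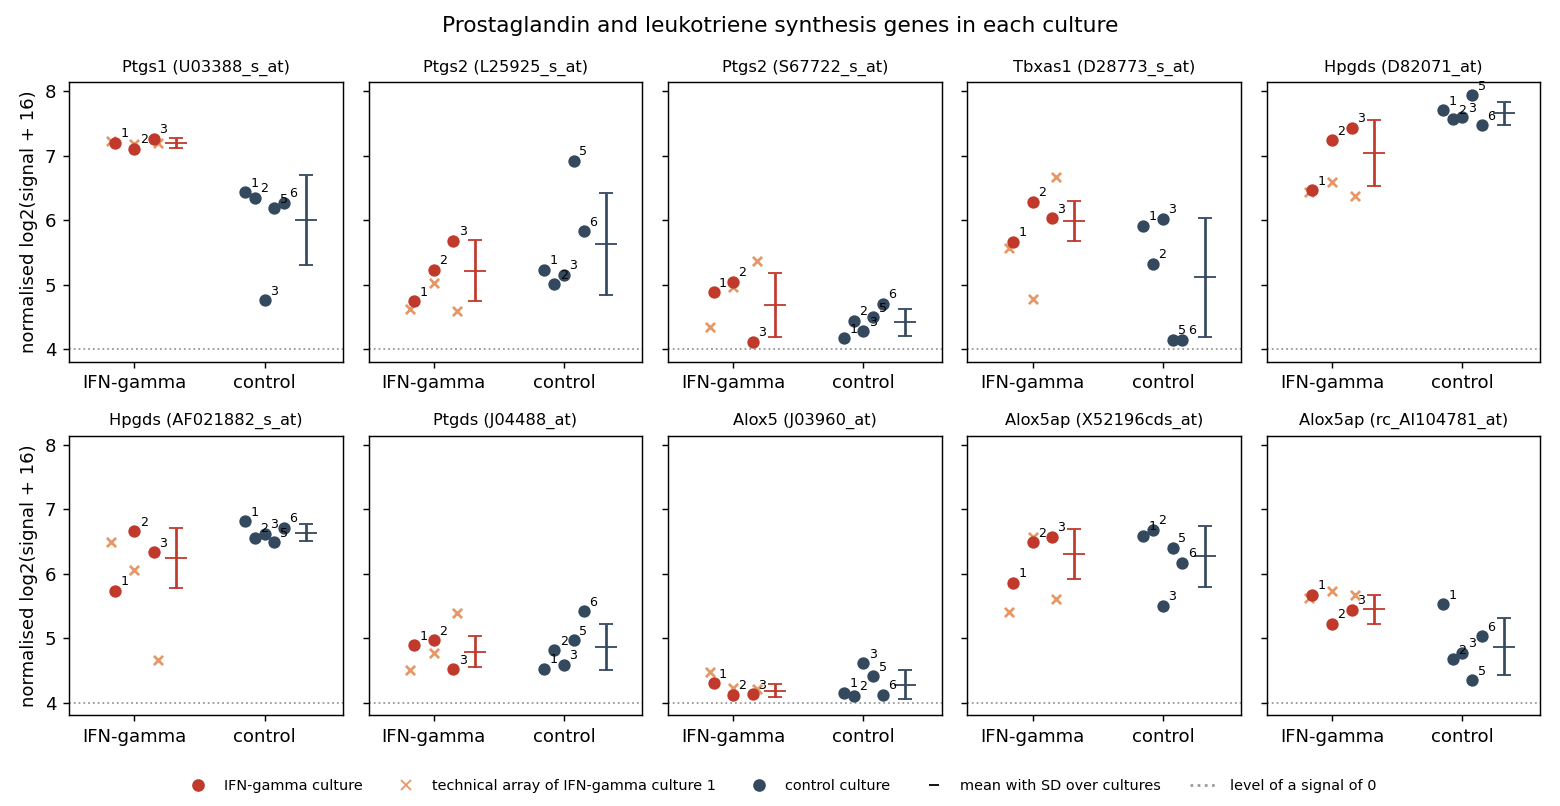
Normalised log2(signal + 16) of the 10 probe sets in each IFN-gamma culture (red, left) and control culture (dark, right), with culture numbers, mean and SD (n = 3 and 5). Crosses are the 3 technical arrays of IFN-gamma culture 1 and the dotted line is the level of a signal of 0. Ptgs1 lies above all controls in the 3 IFN-gamma cultures, and Alox5 lies near the dotted line in every culture.

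Promoter sequences are shown for both cyclooxygenase genes, because they are the constitutive and the inducible form of the same enzyme and had differences of opposite sign by their brightest probe sets. The RefSeq promoter table of the rat assembly GRCr8 held 5 of the 7 genes (Ptgs1, Ptgs2, Tbxas1, Ptgds and Alox5). Each entry runs from 250 bases before to 50 bases after the annotated start. Below, Ptgs1 is chr3:39981169-39981468 and Ptgs2 is chr13:64713813-64714112, both on the plus strand, 5′ to 3′, and capitals mark the matches to the motifs named in the next paragraph.
Ptgs1: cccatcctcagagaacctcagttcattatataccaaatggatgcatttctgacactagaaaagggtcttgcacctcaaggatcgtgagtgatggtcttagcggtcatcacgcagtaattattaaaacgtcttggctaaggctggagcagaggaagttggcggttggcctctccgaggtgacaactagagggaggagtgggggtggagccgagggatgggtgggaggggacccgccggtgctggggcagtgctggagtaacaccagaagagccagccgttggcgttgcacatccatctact
Ptgs2: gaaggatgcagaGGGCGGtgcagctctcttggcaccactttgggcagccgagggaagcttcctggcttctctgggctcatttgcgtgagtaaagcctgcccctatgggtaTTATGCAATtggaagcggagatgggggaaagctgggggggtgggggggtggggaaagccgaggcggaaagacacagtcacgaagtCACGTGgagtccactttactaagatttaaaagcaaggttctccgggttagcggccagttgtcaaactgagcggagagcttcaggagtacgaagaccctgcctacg

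Motifs were searched on both strands, and positions are relative to the annotated start. The Ptgs2 promoter held a GC box (GGGCGG) at -238, a C/EBP motif (TTNNGCAAT) at -140 and an E-box (CACGTG) at -55. These motifs occurred in 33.1%, 2.33% and 6.42% of the 33469 promoters of the same length. The Ptgs1 promoter matched 0 of the motifs named here. The ISRE core (GAAANNGAA), bound by interferon regulatory factors, was in 0 of the 5 member promoters and in 9.71% of all promoters. Elsewhere, Tbxas1 had a TATA box (TATAAA, 14.2% of all promoters) on the minus strand beginning at -50. Ptgds had a pair of overlapping GC boxes from -151. Alox5 had a GC box at -61 and a palindromic match to the kappaB consensus (7.51% of all promoters) at -143. A match is a run of letters in this window and says nothing of binding.

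Ptgs1 (U03388_s_at), which encodes cyclooxygenase 1, had the largest difference of the 10 probe sets. Its level was 7.21, 7.11 and 7.26 in IFN-gamma cultures 1, 2 and 3, and 6.44, 6.35, 4.76, 6.19 and 6.27 in control cultures 1, 2, 3, 5 and 6. The groups did not overlap, and control culture 3 lay far below the other 4 controls. The mean was 7.19 ± 0.0787 with IFN-gamma (SD, n = 3) and 6.0 ± 0.700 in controls (SD, n = 5). The log2 fold change was 1.19 ± 0.363 SE (2.28-fold, 95% interval 1.30-fold to 4.02-fold; limma adjusted p = 0.208), so Ptgs1 did not pass.

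The culture farthest from its group was control culture 3, whose deposited Ptgs1 signal was 5.3, against 42.7 to 98.8 in the other controls. Divided by the array's own median signal, Ptgs1 was 7.63 to 11.3 on the 5 IFN-gamma arrays, and 3.53 to 4.88 on the control arrays other than culture 3, where it was 0.716. Without control culture 3 the log2 fold change was 0.92 and the adjusted p was 0.0265. Restricting the test to the 1525 probe sets that are not dim left the difference at 1.19 and gave an adjusted p of 0.0484. Of those 1525 probe sets, 108 passed as higher and 74 as lower. In 19 of the 21 other settings Ptgs1 did not pass, and its difference was positive in all 21, from 0.77 to 1.52. The technical arrays 1a, 1b and 1c gave 7.23, 7.18 and 7.21, a range of 0.0491, against a median technical range of 0.588 over all probe sets.

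Ptgs2, which encodes cyclooxygenase 2, was dim by both probe sets and their differences had opposite signs. The brighter (L25925_s_at) had levels of 4.74, 5.23 and 5.68 in IFN-gamma cultures 1, 2 and 3, and 5.23, 5.01, 5.15, 6.92 and 5.83 in control cultures 1, 2, 3, 5 and 6. Control culture 5 was the highest of all 8 and the groups overlapped. The log2 fold change was -0.41 ± 0.431 SE (95% interval -1.38 to 0.56; limma adjusted p = 0.856). Without control culture 5 it was -0.087.

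The other Ptgs2 probe set (S67722_s_at) had deposited signals of 3.2, 22.7 and 18.5 on technical arrays 1a, 1b and 1c of IFN-gamma culture 1. It had 18.6 in IFN-gamma culture 2 and 1.6 in IFN-gamma culture 3, and no control culture exceeded 16. Its levels were 4.89, 5.05 and 4.12 with IFN-gamma, and 4.17 to 4.71 in the controls. IFN-gamma culture 3 was lower than every control, while IFN-gamma cultures 1 and 2 were higher than every control. Technical arrays 1a, 1b and 1c of culture 1 gave 4.34, 4.96 and 5.36, so array 1a lay within the control range. The log2 fold change was 0.27 (95% interval -0.27 to 0.80; adjusted p = 0.827). It was 0.082 without IFN-gamma culture 2, 0.16 without IFN-gamma culture 1 and 0.54 without IFN-gamma culture 3. With array 1a, 1b or 1c alone for IFN-gamma culture 1 it was 0.081, 0.30 and 0.42. Over the 8 cultures both Ptgs2 probe sets had a Pearson correlation of -0.155, so they did not rank the cultures alike.

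Tbxas1 (D28773_s_at), the thromboxane synthase gene, had the second largest positive difference. Its level was 5.67, 6.29 and 6.03 in IFN-gamma cultures 1, 2 and 3, and 5.92, 5.33, 6.02, 4.15 and 4.15 in control cultures 1, 2, 3, 5 and 6. Control cultures 5 and 6, each with a deposited signal of 2, lay at the floor, whereas control cultures 1 and 3 lay within the range of the IFN-gamma cultures. The mean was 5.99 ± 0.310 with IFN-gamma (SD, n = 3) and 5.11 ± 0.920 in controls (SD, n = 5). The log2 fold change was 0.88 ± 0.473 SE (95% interval -0.18 to 1.95; limma adjusted p = 0.590). Over 20 other settings it was 0.24 (with culture number as a block) to 1.81 (with a pseudocount of 1), with no adjusted p under 0.375. The technical arrays of IFN-gamma culture 1 gave 5.57, 4.77 and 6.67, a range of 1.90 that was wider than the 0.616 between the 3 IFN-gamma cultures.

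Hpgds encodes hematopoietic prostaglandin D synthase, the form that macrophages and mast cells carry, and both of its probe sets had negative differences. The brighter (D82071_at) had levels of 6.47, 7.24 and 7.44 in IFN-gamma cultures 1, 2 and 3, and 7.70, 7.56, 7.60, 7.94 and 7.47 in control cultures 1, 2, 3, 5 and 6. All 3 IFN-gamma cultures were below all 5 controls, culture 3 by only a small margin. The mean was 7.05 ± 0.512 with IFN-gamma (SD, n = 3) and 7.66 ± 0.180 in controls (SD, n = 5). The log2 fold change was -0.61 ± 0.237 SE (95% interval -1.14 to -0.075; limma adjusted p = 0.378), so Hpgds did not pass.

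Without IFN-gamma culture 1 the difference of this Hpgds probe set was -0.32 (adjusted p = 0.751), and that culture was low on each of its technical arrays, at 6.43, 6.59 and 6.38. The size also depended on how arrays were scaled. It was -0.47 with scaling to a trimmed mean, -0.19 with array medians subtracted and -0.066 with no scaling. The second Hpgds probe set (AF021882_s_at) had 5.74, 6.66 and 6.34 with IFN-gamma, and 6.49 to 6.82 in the controls, and the groups overlapped. Its log2 fold change was -0.39 ± 0.217 SE (adjusted p = 0.611). Array 1c stood apart from its technical partners here, at 4.66 against 6.49 (1a) and 6.06 (1b), and without it the difference was -0.22. Without the whole of IFN-gamma culture 1 it was -0.14 (adjusted p = 0.918). With no scaling this difference was -0.021. Both Hpgds probe sets were negative in all 21 other settings.

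Ptgds encodes the lipocalin-type prostaglandin D synthase, which in brain is known from meninges, choroid plexus and oligodendrocytes. Its probe set (J04488_at) was dim, with levels of 4.89, 4.97 and 4.52 with IFN-gamma, and 4.53 to 5.42 in the controls. The groups overlapped, and the log2 fold change was -0.072 ± 0.233 SE (95% interval -0.60 to 0.45; limma adjusted p = 0.970).

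Alox5 (J03960_at), the 5-lipoxygenase gene, lay near the floor in every culture. Its level was 4.30, 4.12 and 4.13 with IFN-gamma, and 4.11 to 4.61 in the controls, and its deposited signal never exceeded 6.3 on any of the 10 arrays. The log2 fold change was -0.095 (95% interval -0.49 to 0.30; limma adjusted p = 0.940), and a fall would be hard to see from this level.

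Alox5ap, which encodes FLAP, had 1 brighter and 1 dim probe set that behaved differently. The brighter (X52196cds_at) had levels of 5.86, 6.49 and 6.58 in IFN-gamma cultures 1, 2 and 3, and 6.59, 6.68, 5.51, 6.41 and 6.17 in control cultures 1, 2, 3, 5 and 6. The lowest culture of each group stood apart and the groups overlapped almost fully. Its log2 fold change was 0.037 ± 0.294 SE (95% interval -0.63 to 0.70; limma adjusted p = 0.992), and its sign was negative in 6 of 21 other settings. The technical arrays of IFN-gamma culture 1 spanned 5.40 to 6.57.

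The dim Alox5ap probe set (rc_AI104781_at) had levels of 5.68, 5.23 and 5.44 in IFN-gamma cultures 1, 2 and 3, and 5.53, 4.67, 4.77, 4.34 and 5.03 in control cultures 1, 2, 3, 5 and 6. Only control culture 1 lay within the IFN-gamma range. Its log2 fold change was 0.58 ± 0.264 SE (95% interval -0.014 to 1.17; limma adjusted p = 0.487), and over 20 other settings it was 0.24 to 1.13. Over the 8 cultures both Alox5ap probe sets had a Pearson correlation of 0.00884. Both Hpgds probe sets had one of 0.792, but a Spearman correlation of 0.357.

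**Figure D2:**
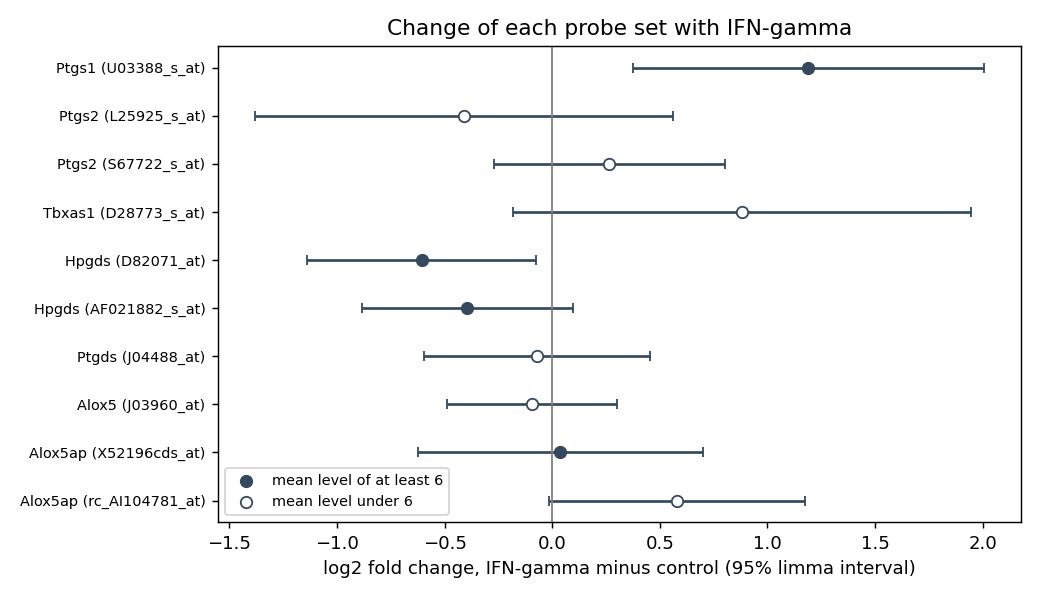
Log2 fold change (IFN-gamma minus control) of each probe set with its 95% limma interval, filled where the mean level was at least 6. Intervals of Ptgs1 (0.37 to 2.01) and of the brighter Hpgds probe set (-1.14 to -0.075) leave out 0, and no probe set passed after adjustment.

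Agreement between technical arrays differed among the members. For 5 of the 10 probe sets the range of arrays 1a, 1b and 1c exceeded the median of 0.588 over all probe sets. Those were Tbxas1, the second Hpgds probe set, the brighter Alox5ap probe set, the dimmer Ptgs2 probe set and Ptgds. The narrowest ranges belonged to Ptgs1 and the dim Alox5ap probe set (0.105). The names ending in _s_at (Ptgs1, Ptgs2, Tbxas1 and the second Hpgds probe set) mark probes that, by the manufacturer's naming, can match more than a single transcript.

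The plot of Ptgs1 and Hpgds across settings shows how far each difference depends on the processing and on single cultures.

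**Figure D3:**
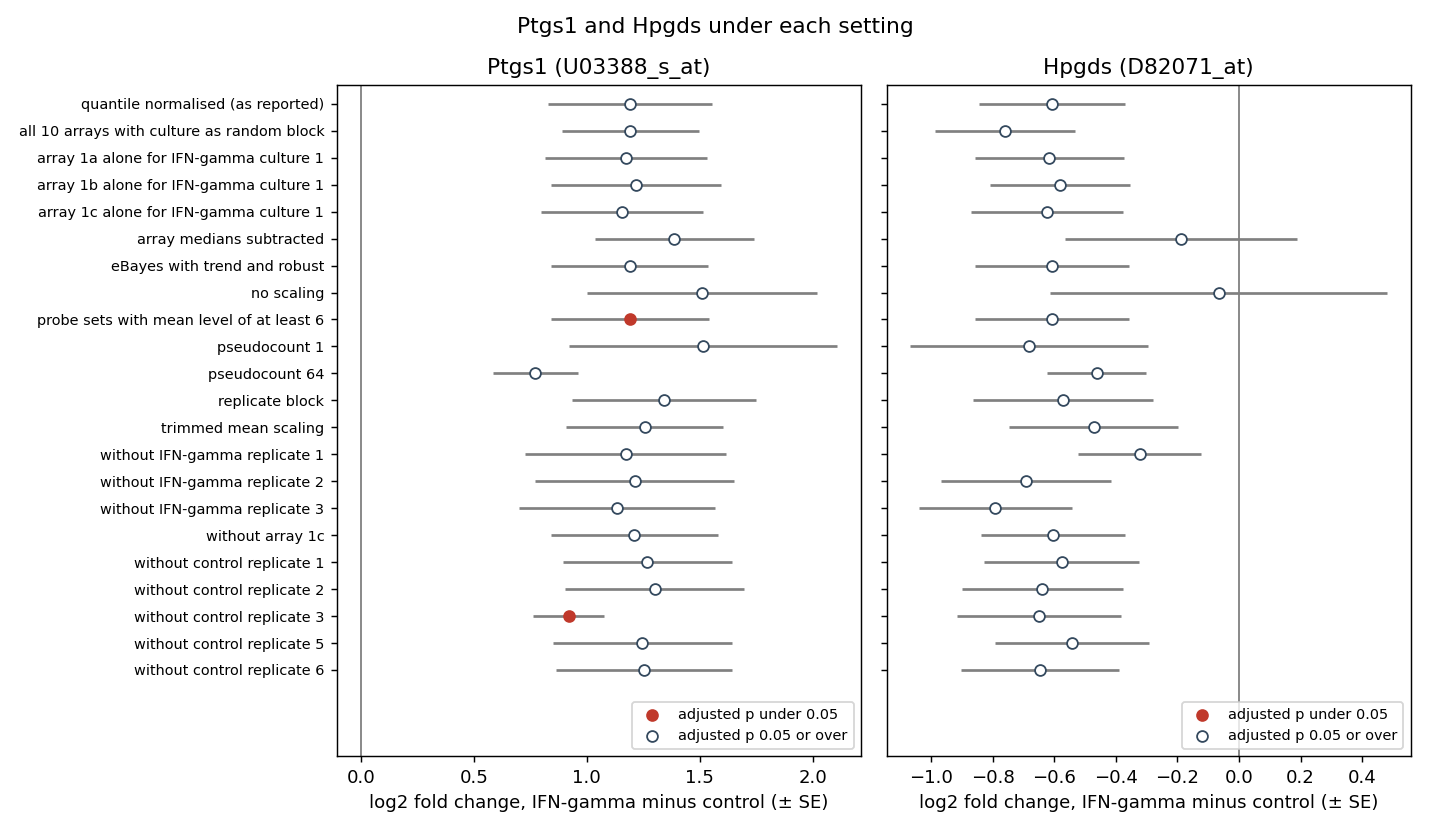
Log2 fold change (IFN-gamma minus control, ± SE) of Ptgs1 and of the brighter Hpgds probe set as reported and under 21 other settings, red where the adjusted p was under 0.05. Ptgs1 passed in 2 settings, without control culture 3 and with only the probe sets that are not dim, and Hpgds passed in 0.

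Around these genes, a list of 72 genes for arachidonic acid release, other oxygenases and synthases, breakdown, transport and receptors had 45 measured members by the brightest probe set of each. Of these 0 rose and 0 fell by limma, against 0.887% of 4736 genes that rose and 0.697% that fell. At an unadjusted p under 0.05 there were 7 of the 45, and 526 of all 4736 genes. The IFN-gamma cultures lay entirely above the controls for 2 of the 45 and entirely below them for 2. Over all 4736 genes these counts were 197 and 173. The median log2 fold change was -0.028 over the list and -0.021 over all genes.

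Among 12 measured phospholipases and release genes, Pla2g4a, the cytosolic phospholipase A2 that frees arachidonic acid, averaged 6.24 ± 0.287 with IFN-gamma (SD, n = 3) and 6.27 ± 0.214 in controls (SD, n = 5; limma adjusted p = 0.989), a difference of -0.028 that was positive with array medians subtracted and with no scaling. The calcium-dependent membrane-binding annexins Anxa3 and Anxa5 had log2 fold changes of 1.05 and -0.67 (adjusted p = 0.322 and 0.290). All 3 IFN-gamma cultures lay above the controls for this Anxa3 probe set, while the other Anxa3 probe set had 0.28. The groups overlapped for Anxa5. Anxa1, which was dim, had -0.96 (adjusted p = 0.129) with overlapping groups, and -0.54 by its other probe set.

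Among 18 measured synthases and oxygenases, Lta4h, which makes leukotriene B4, averaged 7.49 ± 0.118 with IFN-gamma (SD, n = 3) and 7.83 ± 0.488 in controls (SD, n = 5). Its log2 fold change was -0.33 (adjusted p = 0.802), and it was positive with array medians subtracted and with no scaling, and -0.14 without control culture 1. Cyp4f6, of a cytochrome P450 family that oxidises eicosanoids, had -0.94 (adjusted p = 0.164), and Gpx4, a peroxidase that reduces lipid hydroperoxides, had -0.81 (adjusted p = 0.201). For both, all 3 IFN-gamma cultures lay below the controls. Gstp1, a glutathione transferase, had 0.69 (adjusted p = 0.497). None of the 7 measured breakdown and transport genes had a mean level of 6. Of the 8 measured receptors Ptgir, the prostacyclin receptor, was the only one that did, at 6.34 ± 0.393 with IFN-gamma (SD, n = 3) and 6.29 ± 0.681 in controls (SD, n = 5; adjusted p = 0.990).

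**Figure D4:**
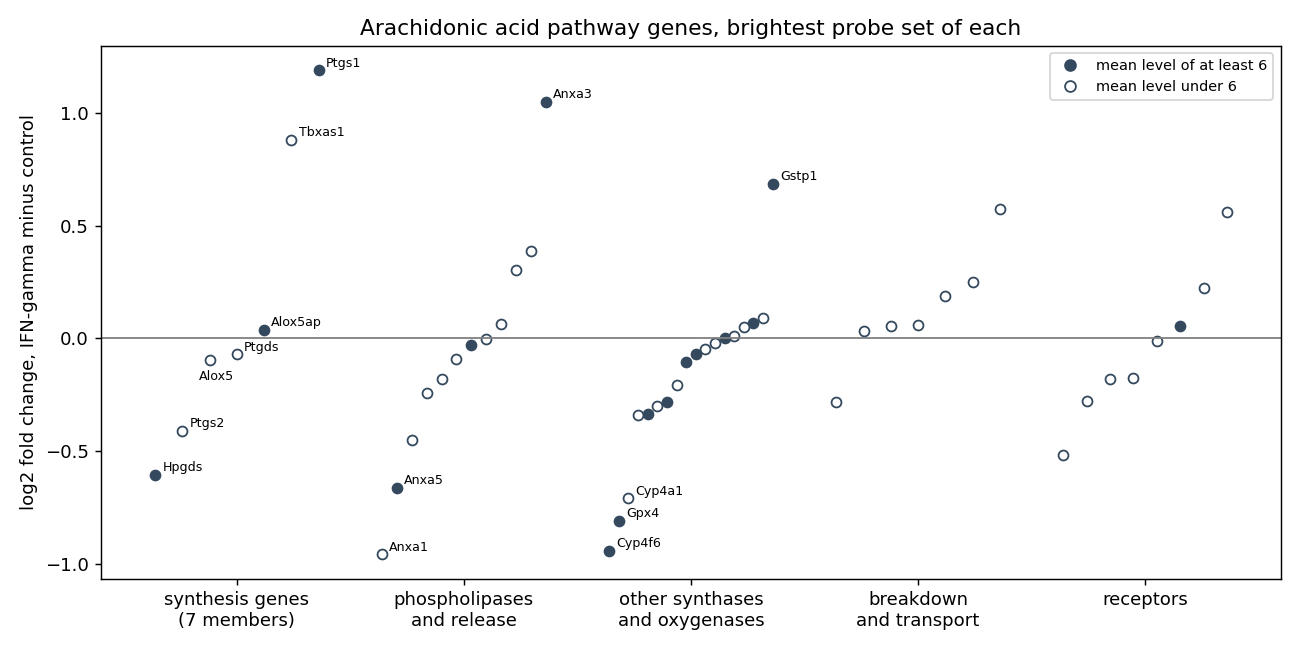
Log2 fold change (IFN-gamma minus control) of the brightest probe set of each gene, for the 7 synthesis genes and for 45 other pathway genes by role, filled where the mean level was at least 6. Points within a role are sorted by value, and those beyond 0.6 and all 7 synthesis genes are named. Ptgs1 has the highest value, and no gene shown passed the test.

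Of 21 measured transcription factors and signal proteins that act on Ptgs2 or Alox5ap transcription in other systems, 2 rose and 0 fell, against 0.887% and 0.697% of all genes. Irf1 was 9.07 ± 0.124 with IFN-gamma (SD, n = 3) and 5.74 ± 0.210 in controls (SD, n = 5), a 10.1-fold rise (limma adjusted p = 1.08e-05). Irf8 rose 2.85-fold (adjusted p = 0.00112). Cebpb, of the C/EBP family, had a log2 fold change of 1.09 and just missed the threshold (adjusted p = 0.0501), although it passed in 8 of 21 other settings, and its other probe set had 0.05. Nfkb1, an NF-kappaB subunit, had 1.05 (adjusted p = 0.178), Nfkbia, its inhibitor, had 0.39 (adjusted p = 0.713), and Junb had 0.21 (adjusted p = 0.899).

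Markers of the labelled and of other cell types were summed as normalised signals. Of 9 measured microglia and macrophage markers, 5 had a mean level of at least 6 (Lyz2, C1qb, Cd14, Aif1 and Cd53), and the other 4 were dim, with Csf1r at 4.79, Cx3cr1 at 5.09, Itgam at 5.28 and Ptprc at 5.70. Their sum was 7176 to 8227 in the IFN-gamma cultures and 2408 to 3658 in the controls. Lyz2 and C1qb passed as higher, whereas Cd14 (-0.34) and Cx3cr1 (-0.29) had negative log2 fold changes and did not pass. Lyz2, a lysozyme gene, was the brightest of them, and without it the sum was 1713 to 2062 with IFN-gamma and 1137 to 1408 in controls. That of 8 astrocyte markers was 289.7 to 322 with IFN-gamma and 577 to 982 in controls, with Glul passing as lower and the other 7 not passing. Without Glul, the glutamine synthetase gene, it was 147 to 159.9 with IFN-gamma and 136 to 242 in controls, so the groups overlapped. That of 7 meningeal and fibroblast markers, all 7 of them dim, was 136 to 176 with IFN-gamma and 204 to 285 in controls. None of them passed by the brightest probe set of each gene. Of the 3 other Col1a1 probe sets, 1 passed as lower. That of 6 mast cell markers, a type known for Hpgds, was 73.0 to 89.4 with IFN-gamma and 66.0 to 149 in controls. All 6 were dim, with 0 passing and Kit at a mean level of 4.31. In such bulk samples fewer cells of a type and less RNA per cell cannot be told apart, and the part of these markers in the differences above was not tested.

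For each gene whose brightest probe set had a mean level of at least 6, the pair of other genes with the most similar levels over the 8 cultures was found among 4729. These correlations describe 8 cultures that share the group difference and were picked as the highest. For Ptgs1 they were Psmb1, a proteasome subunit gene (Pearson r = 0.988, Spearman rho = 0.786) and RT1-DMb (r = 0.986, rho = 0.786), which stayed at r = 0.953 and 0.948 without the 2 cultures farthest from the median. For Hpgds they were Klc1 (r = 0.932, rho = 0.611) and Acsl1 (r = 0.924, rho = 0.381). Without the 2 farthest cultures these were 0.690 and -0.100, so the likeness of Acsl1 rested on those cultures. For Alox5ap they were Wdr74 (r = 0.961, rho = 0.643) and Pde6d (r = 0.958, rho = 0.952), at 0.792 and 0.920 without the 2 farthest cultures. For each member the 6 cultures left held both groups, so these values still include any group difference.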

How the data were processed

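Expression was measured on 10 Affymetrix rat arrays of biotin-labelled RNA. The authors deposited 1 linear signal intensity per probe set and array. MAS5 and GCRMA are both listed in the submitters' processing notes, with neither tied to a step, and the origin of these values is therefore open. From 8799 probe sets, log2(signal + 16) was quantile normalised, the technical arrays of IFN-gamma culture 1 were averaged, and 59 array controls were left out, which left 8740. The number of arrays limits the precision. No pair of arrays shared more than 80 equal signals. IFN-gamma (n = 3) was compared with control (n = 5) by limma 3.58.1 in R 4.3.3 (lmFit, eBayes, two-sided, no block), with Benjamini-Hochberg adjustment over all probe sets. This step was tested on simulated data of independent normal noise, without the differences in scale between these arrays. That does not give its power for the members.

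Symbols came from the platform annotation, and each member's Entrez identifier carried the same symbol in the RefSeq table of GRCr8. A gene outside the members was represented by its brightest probe set. All probe sets of the members are named. Of the pathway and regulator lists, genes past the threshold and up to 4 per role with the largest difference among those with a mean level of at least 6 are named, and for likeness 2 genes per member. That mean is over all 8 cultures, so Anxa3 and Junb, at 5.99 and 5.94 in controls, reached it through their IFN-gamma cultures. Anxa1, which was dim, is named as well, because it had the lowest log2 fold change of the pathway list. Members and lists were chosen with earlier results of these data known. The level ranks within an array planned beside the per-culture levels are not given, since levels of different probe sets are not comparable.

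Culture numbers 1, 2 and 3 occur in both groups. Deviations from group means of same-numbered cultures correlated at -0.0266 to 0.00383. With 3 and 5 cultures per group and mostly dim probe sets, these values cannot tell whether same-numbered cultures were prepared together. The main test used no block. The alternatives were other scalings, pseudocounts, a filter on dim probe sets, choices for the technical arrays, variance models, a culture-number block and the omission of each culture. Marker sums without the brightest gene of a list were added after the data were seen.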

Additional observations from a re-analysis of the deposited data

Results flagged for a closer look

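The Ptgs1 level of control culture 3, at 4.76, lay far from the other 4 controls, the nearest of which was at 6.19. Its gap was 0.853 of the range of the control group, above Dixon's 95% critical value of 0.710 for 5 samples. It was the only such value in the 10 control groups checked, 1 per probe set. Chance gives about 1 in 20 for each group, and more over all 10 groups together. The same array had the lowest median signal of the 10, at 7.4. Without it the log2 fold change of Ptgs1 with IFN-gamma was 0.92 (limma adjusted p = 0.0265), against 1.19 (adjusted p = 0.208) with it.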

How the results depend on the processing

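Differences of Ptgs1, Tbxas1, the dimmer Ptgs2 and the dimmer Alox5ap probe sets stayed positive, and those of Alox5 and both Hpgds probe sets negative, in each of the 20 or 21 other settings that could be run. Ptgs1 alone of the members passed anywhere, so the count of member probe sets past the threshold was 1 with the filter on dim probe sets, where fewer were tested, and 0 to 1 over the omissions of a culture. With that filter 108 of the 1525 probe sets tested passed as higher and 74 as lower, against 81 and 53 of 8740 without it. Under the filter 1 wider pathway gene (Cyp4f6, limma adjusted p = 0.0427) and 4 regulators passed. Among these regulators Irf1 and Irf8 averaged 5.74 and 5.44 in controls, and reached a mean level of 6 only through their IFN-gamma cultures. Omissions gave 0 pathway genes and 2 to 3 regulators. The brighter Ptgs2 probe set was 0.087 with the replicate block. Ptgds was 0.093 with array 1c alone and 0.15 with the replicate block, and -0.16 to 0.066 over omissions of a culture. The brighter Alox5ap probe set was -0.080 with all 10 arrays, -0.11 with array 1a alone and -0.042 with array 1c alone, and -0.16 to 0.26 over omissions. Among pathway genes, Ptgir was -0.0028 with all 10 arrays, -0.026 and -0.10 with array 1a or 1b alone, -0.063 without array 1c (an alternative added after the data were seen) and -0.17 to 0.26 over omissions. Lta4h was 0.030 with array medians and 0.15 with no scaling. Pla2g4a was 0.058 with all 10 arrays, 0.034 and 0.0071 with array 1b or 1c alone, 0.13 with array medians, 0.25 with no scaling, 0.059 with the replicate block and -0.19 to 0.066 over omissions. Junb was -0.0026 with the replicate block. The causes were not tested.

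Calls over all probe sets were 81 higher and 53 lower. All 10 arrays gave 124 higher; no scaling gave 38 higher and 1 lower, array medians 27 lower, and a pseudocount of 1 gave 42 higher and 25 lower. Omitting a culture gave 47 to 105 higher and 21 to 48 lower. The replicate block gave 17 higher and 5 lower and 1 regulator, and Irf8 did not pass with it (adjusted p = 0.0939). Higher calls were 60.4% of calls here, 78.7% with array medians, 97.4% with no scaling, 77.3% with the replicate block. With no scaling the median of all probe sets was 0.099, against -0.017. Alox5 exceeded a signal of 16 on 0 of 10 arrays, so a lower level of it could not be measured.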
